A study of Mus musculus with 4 samples.

Results

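Peaks of chromatin immunoprecipitation (ChIP-seq) at genes for long noncoding RNAs (lncRNAs) and microRNAs were described in cardiac fibroblasts of newborn mice. TEAD1 was read as the ChIP target from the sample names, since the labels name no antibody. A peak was taken when its summit lay in the span of an annotated lncRNA or microRNA gene, or within 5 kb of an end, and more than 10 kb from every protein-coding gene. This position rule selected 2328 of 21285 peaks (10.9%) in the first deposited list, called list 1, and 2363 of 21218 (11.1%) in the second, called list 2. No measured value entered the choice. Another 5511 and 5653 peaks lay as far from protein-coding genes but not at a noncoding gene, and 13446 and 13202 lay in or within 10 kb of a protein-coding gene.

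The study held 4 libraries from these cells, 1 in each group: ChIP and input of cells overexpressing TEAD1 (OE-TEAD1), and ChIP and input of cells carrying the negative control (OE-NC). Input is fragmented chromatin set aside before the antibody step. Both deposited lists were called against input, and the labels do not say which list belongs to which condition, so no direction between OE-TEAD1 and OE-NC was drawn. The antibody, the vector and promoter of the construct, the mouse strain and the number of animals or cultures are not stated in the labels. The cell type rests on the labels, since peak lists hold no expression of marker genes. With 1 library behind each list, no difference between lists could be set against a spread between replicates, and no test was made.

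TEAD1 is a DNA-binding protein of the Hippo pathway. It recruits the coactivators YAP and TAZ, often to enhancers far from genes, where AP-1 factors bind as well. In fibroblasts this pathway drives genes of matrix production and contraction. LncRNAs are long transcripts without a protein product, and many arise at enhancers. A microRNA is a short RNA cut from a hairpin precursor. It pairs with messenger RNAs mainly through its seed, bases 2 to 8, and lowers their translation or stability. In heart fibroblasts the miR-29 family is known to repress collagens, and miR-30 to repress Ccn2, a matrix gene activated by YAP and TEAD.

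Peak summits lay in or within 5 kb of 24 microRNA genes. Of these genes 21 had mature sequences in the RefSeq table (GRCm38.p6), 35 in all with 32 different seeds. The mature forms from the best known loci are printed 5′ to 3′, with the seed in capitals, because the loci and their shared seeds come up in the results.
miR-30a-5p: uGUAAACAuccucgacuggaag
miR-206-3p: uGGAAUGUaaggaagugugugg
miR-133b-3p: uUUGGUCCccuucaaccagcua
miR-29a-3p: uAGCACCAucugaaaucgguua
miR-29b-3p: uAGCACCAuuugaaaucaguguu
miR-125b-5p: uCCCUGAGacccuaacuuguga
miR-6367: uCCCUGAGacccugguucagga
miR-99a-5p: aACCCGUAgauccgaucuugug
miR-129-5p: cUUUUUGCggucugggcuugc
miR-21c: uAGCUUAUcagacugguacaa
miR-29a-3p and miR-29b-3p share a seed, and miR-125b-5p, made from 2 loci, shares one with miR-6367. Among the 21 genes with mature sequences, all the other seeds belonged to 1 gene each. Mir30d, Mir143 and Mir145a also had a peak nearby. They had no mature sequence in the RefSeq table, so their seeds were not compared.

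The start regions of 4 lncRNA genes are shown next, because their peak summits lay there and the letters of known binding motifs stood near the summit. Each is the 300-base RefSeq window (GRCm38.p6) from 250 bases before to 50 after the annotated start, written along the gene's strand. Capitals mark the TEAD core GGAATG or its reverse complement CATTCC, and the AP-1 core TGACTCA or its reverse complement TGAGTCA. The windows lie at chr3:145632924-145633223 on the minus strand (Gm40164), chr1:136683146-136683445 on the plus strand (Gm19705), chr3:104360269-104360568 on the minus strand (Gm5546) and chr13:15806993-15807292 on the plus strand (A530046M15Rik).
Gm40164: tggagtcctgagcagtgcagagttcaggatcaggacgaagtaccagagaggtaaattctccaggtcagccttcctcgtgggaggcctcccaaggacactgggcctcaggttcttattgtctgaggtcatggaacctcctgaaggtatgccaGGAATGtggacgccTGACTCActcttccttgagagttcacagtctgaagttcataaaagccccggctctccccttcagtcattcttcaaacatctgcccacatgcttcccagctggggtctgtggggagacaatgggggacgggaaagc
Gm19705: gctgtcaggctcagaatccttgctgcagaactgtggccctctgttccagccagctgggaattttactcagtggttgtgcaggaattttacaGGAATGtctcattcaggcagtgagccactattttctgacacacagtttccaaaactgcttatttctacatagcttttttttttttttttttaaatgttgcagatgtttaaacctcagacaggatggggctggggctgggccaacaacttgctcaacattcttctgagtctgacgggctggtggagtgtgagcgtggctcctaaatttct
Gm5546: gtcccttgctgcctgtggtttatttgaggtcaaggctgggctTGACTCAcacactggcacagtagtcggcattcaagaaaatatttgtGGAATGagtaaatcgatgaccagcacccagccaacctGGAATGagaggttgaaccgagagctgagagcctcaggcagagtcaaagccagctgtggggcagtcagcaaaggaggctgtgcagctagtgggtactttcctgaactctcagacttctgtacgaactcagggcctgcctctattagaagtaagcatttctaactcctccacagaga
A530046M15Rik: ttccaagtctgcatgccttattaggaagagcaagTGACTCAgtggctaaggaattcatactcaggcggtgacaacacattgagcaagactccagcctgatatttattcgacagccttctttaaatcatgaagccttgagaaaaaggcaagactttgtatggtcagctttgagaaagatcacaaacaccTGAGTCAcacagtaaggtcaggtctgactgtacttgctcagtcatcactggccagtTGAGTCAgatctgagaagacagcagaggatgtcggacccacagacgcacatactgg
Gm40164 has a TEAD core whose first base lies at -99 from the start and an AP-1 core at -85. Gm19705 has a TEAD core at -159, and Gm5546 has TEAD cores at -162 and -125 and an AP-1 core at -208. A530046M15Rik has AP-1 cores at -216, -62 and -6 and no TEAD core.

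The highest fold at a microRNA gene was seen at Mir30a, the gene for miR-30a. A single peak, at chr1:23270697-23271889 in list 1, had its summit 1.17 kb upstream of the hairpin and 95.3 kb from the nearest protein-coding gene, Ogfrl1. It was 32.1-fold enriched in list 1, with a 95% interval of 26.9 to 38.1, and 74.0-fold in list 2 (64.4 to 84.6). The fold, the authors' value for each peak, is the fragment pileup at the summit over the local input background, with 1 added to each. It rested on 131 fragments over a background of 3.11 in list 1 and 211 fragments over 1.87 in list 2. That 1.87 is the floor of list 2, the lowest background of any of its peaks. The intervals are exact Poisson intervals of the fragment number, cover counting error of the ChIP library only, and did not overlap here. Both the higher fragment number and the lower background stood on the side of list 2.

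At the muscle microRNA locus, 2 sites were called in both lists. Lincmd1, a lncRNA of muscle differentiation, hosts Mir206 and Mir133b, microRNAs of skeletal muscle. The site at chr1:20677851-20678408 was 16.9-fold enriched in list 1 and 17.8-fold in list 2. The neighbouring site, at chr1:20678803-20679423 in list 1, was 9.49-fold (6.78 to 12.9) and 15.3-fold (11.3 to 20.3). Its summits, chosen for mention after they were seen, lay at positions 20679059 and 20679055, inside the Mir206 hairpin (20679010 to 20679082, plus strand). Bases 2 to 7 of miR-206-3p, printed above, spell the TEAD core in RNA letters, GGAAUG. In the genome those 6 bases lie at 20679056 to 20679061. The list 1 summit was on them, and the list 2 summit was 1 bp away. Of the 1005 mouse hairpins of RefSeq, 43 (4.28%) held GGAAUG or CAUUCC, and of the 1738 mature sequences 15 (0.863%) did. One other hairpin held a summit, Mir7680 in list 2, and it had no such core.

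MicroRNA loci tied to fibrosis and fibroblast identity had lower folds. At the Mir29a and Mir29b-1 cluster, on the minus strand of chromosome 6, a site 0.483 kb beyond the 3′ end of Mir29a was 7.52-fold enriched in list 1 (5.01 to 10.9) and 6.66-fold in list 2 (4.56 to 9.42). A second site, 3.93 kb from Mir29b-1 on its 5′ side, was 6.24-fold and 4.08-fold. The intervals of the lists overlapped at both. Mir125b-1 and Mir125b-2 give the same miR-125b-5p, which is known to act in the change of fibroblasts to myofibroblasts. The peak near Mir125b-1, at chr9:41586062-41586724 inside the host gene Mir100hg, was 9.001-fold and 15.003-fold enriched. The peak 2.60 kb upstream of Mir125b-2, on chromosome 16, was 7.71-fold and 5.23-fold. The intervals of the 2 copies overlapped in list 1 and lay apart in list 2, with Mir125b-1 higher. Mir30d, a relative of Mir30a, had a peak 4.27-fold enriched in list 1 (2.72 to 6.43) and 8.07-fold in list 2 (5.53 to 11.4).

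Less studied microRNA genes made up the rest of the sites called in both lists. The Mir3093 site in Gm3764 was 19.1-fold enriched in list 1 and 11.9-fold in list 2, the Gm51276 site 18.7-fold and 19.2-fold, and the nearer Mir680-3 site 15.1-fold and 16.4-fold. A farther Mir680-3 site was 5.51-fold and 5.28-fold. The other 4 sites, at Snhg20 and Mir6516, at Mir7680, at Gm51288 and at Mir3966, ranged from 3.65-fold to 9.18-fold in list 1 and from 3.22-fold to 10.7-fold in list 2. Of the 16 microRNA sites called in both lists, Mir30a was the 1 whose intervals did not overlap. Over all 15015 paired sites of the lists, 7.13% had intervals apart with list 2 higher.

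Some microRNA genes had a peak with no partner in the other list. Near Mir143 and Mir145a, the smooth muscle microRNAs of chromosome 18 next to the lncRNAs Carmn and Bvht, list 1 had a peak 5.14-fold over input on 13 fragments. List 2 had a peak at another position there, 3.14-fold on 8 fragments, the lowest number of any peak. In list 1 a peak near Mir21c was 5.85-fold, and it overlapped a list 2 peak without being its best match. In list 2 the peaks near Mir129-2 and Mir129b (4.79-fold), a second Gm51288 site (5.42-fold), Mir6367 (4.19-fold), Mir7210 (3.53-fold), Mir99a (3.49-fold) and Gm51270 (2.87-fold) overlapped none of list 1. These peaks had at most 20 fragments. Over all peaks 70.9% of list 1 and 71.4% of list 2 overlapped one of the other list.

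**Figure D1:**
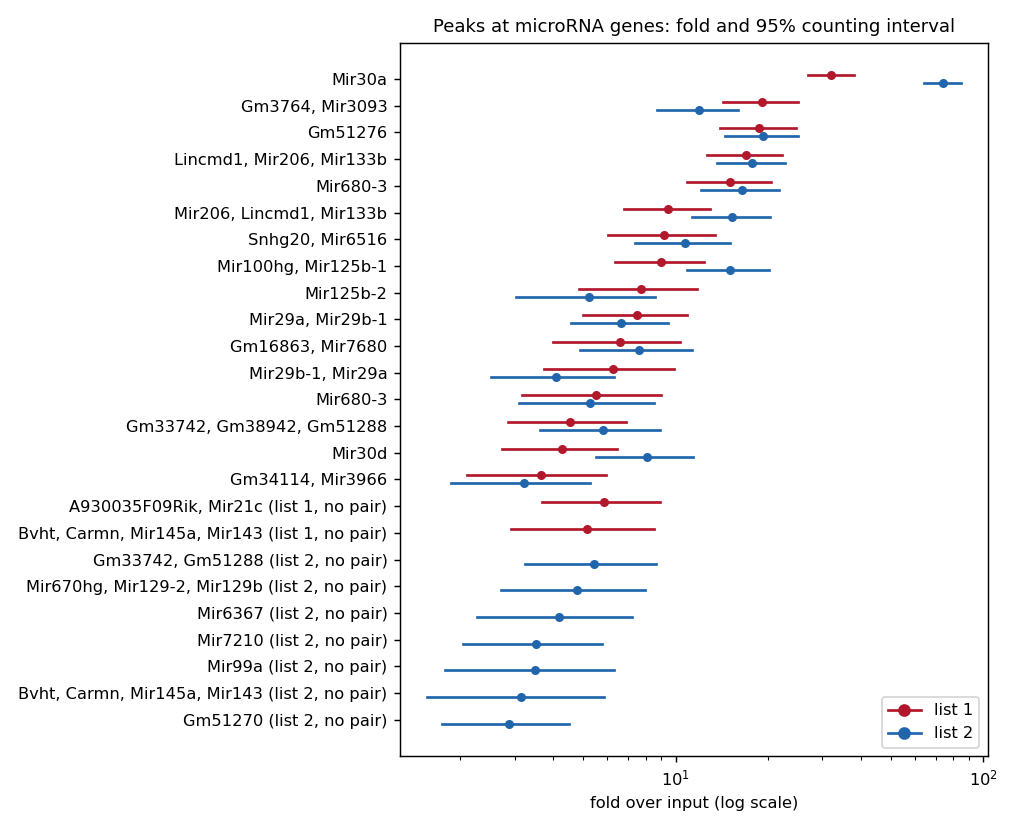
Fold over input (log scale) at each peak near a microRNA gene, list 1 in red above list 2 in blue, points being the authors' folds and lines exact Poisson 95% intervals of the fragment number. Mir30a is at 32.1-fold in list 1 and 74.0-fold in list 2, and peaks without a partner lie at or below 5.85-fold.

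Among lncRNA sites called in both lists, the one with the highest value of the smaller −log10 q of the 2 lists lay in Gm20125, a gene of 144.7 kb. Its summit was 710.5 kb from the nearest protein-coding gene, Cited2, which encodes a transcriptional coregulator. Distances from a lncRNA site to a protein-coding gene run from the summit throughout. The peak, at chr10:17012093-17013324 in list 1, was 93.4-fold enriched in list 1 (84.3 to 103.2; 383 fragments) and 122.7-fold in list 2 (110.6 to 135.7; 373 fragments). The fragment numbers were close, and the backgrounds were 3.11 and 2.05. Gm20125 held 7 peaks in each list. Its next strongest was 19.6-fold in list 1 and 14.2-fold in list 2.

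The 12 leading lncRNA sites were ranked by that value, and 11 of them are described. After Gm20125 came Gm36193 (60.05-fold enriched in list 1 and 89.8-fold in list 2), 42.2 kb from Fbxo32, which encodes the muscle ubiquitin ligase atrogin. Gm41405, next to the keratin gene Krt18 at 13.9 kb, was 45.9-fold and 68.5-fold. Gm40164 was 57.0-fold (49.1 to 66.0) and 75.8-fold (66.96 to 85.6), with its summit 0.105 kb and 0.107 kb before the start of the gene. That site lies 13.9 kb from Ccn1, the matricellular gene known as a direct target of YAP and TEAD. The window printed for Gm40164 holds both summits, 8.5 and 10.5 bp from the middle of its TEAD core.

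Gm19705 was 39.8-fold enriched in list 1 (34.6 to 45.7; 204 fragments over 4.15) and 80.8-fold in list 2 (71.0 to 91.6; 242 fragments over 2.01). Its summits lay 16.5 and 15.5 bp from the middle of the TEAD core printed above. The fragment numbers differed less than the folds, and the background in list 1 was the higher one.

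Wincr1, a lncRNA induced by Wnt signalling in skin fibroblasts, had 3 strong sites, at its start and in the 11.4 kb after it. The leading one was 45.9-fold and 52.5-fold over input, the next 32.7-fold and 34.4-fold, and the one at the gene start 22.3-fold and 23.0-fold. The start window of Wincr1 holds none of the 4 motif cores searched. Gm34719, 208.5 kb from Dio3 near the imprinted cluster of chromosome 12, was 42.8-fold and 61.4-fold.

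The other leading sites were Gm46032 (57.7-fold enriched in list 1 and 63.6-fold in list 2), Gm32039 (42.8-fold and 51.6-fold), Gm40436 (36.9-fold and 77.9-fold) and 4933433H22Rik (43.1-fold and 65.8-fold). All 11 folds were higher in list 2. At Gm46032, Wincr1 and Gm32039 the intervals of the lists overlapped, and at the other 8 they did not, with list 2 higher at each. Over all paired sites this share was 7.13%, and sites on so many fragments have narrow intervals. The intervals leave out the error of the input background. At Gm34719 the lists had 175 fragments each, over backgrounds of 3.11 in list 1 and 1.87 in list 2. Gm32039 had more fragments in list 1 (175 and 147). At Gm41405 it was the other way, with 225 and 401 fragments over 3.93 and 4.87. List 2 also had the higher median fold over all its peaks (6.24 in list 1 and 6.83 in list 2).

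**Figure D2:**
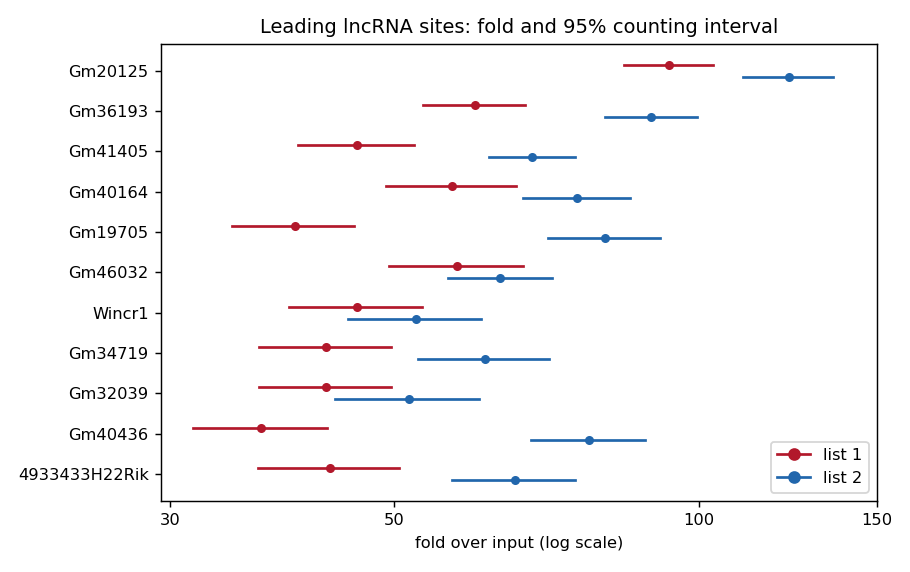
Fold over input (log scale) at 11 of the 12 leading lncRNA sites, list 1 in red above list 2 in blue, with exact Poisson 95% intervals. Folds run from 36.9 to 93.4 in list 1 and from 51.6 to 122.7 in list 2, and at each site the list 2 point is the higher one.

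Some lncRNA genes held many peaks. Mir100hg, the host of Mir125b-1, spans 238.7 kb at chr9:41376526-41615185 and held 18 peaks in list 1 and 14 in list 2, the highest number in list 1, and 13 sites were paired. Its strongest peak, at chr9:41514952-41515781 in list 1, was 44.8-fold over input (37.2 to 53.5) and 39.1-fold in list 2 (32.2 to 47.0). A second, at chr9:41479664-41480810, was 29.0-fold and 32.4-fold. All peaks lay more than 99 kb from the lower-numbered end of the span.

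Gm15270 spans 264.1 kb between Moxd1 and Ccn2, which encodes connective tissue growth factor, and held 15 peaks in each list, with 13 sites paired. Its 2 leading sites in list 1 were at chr10:24391714-24392594 (25.3-fold enriched in list 1 and 17.5-fold in list 2) and at chr10:24580741-24581720 (25.9-fold and 31.5-fold). The site at 24580741 lies 14.2 kb from Ccn2. A site at chr10:24479101-24479652 was 13.7-fold and 27.0-fold, on 70 fragments over a background of 4.19 and 83 over 2.11.

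Gm13986, a gene of 253.9 kb whose nearest protein-coding neighbour is Thbs1, held 11 and 14 peaks. Thbs1 encodes thrombospondin, an activator of latent TGF-beta. The strongest were 33.2-fold enriched in list 1 and 59.3-fold in list 2 at chr2:117867044-117868230, and 34.9-fold and 48.8-fold at chr2:117959085-117960016. Pvt1, the lncRNA beside the Myc oncogene, held 13 and 10 peaks, but most were weak, with median folds of 5.35 and 5.78 and 6 paired sites. Its strongest peak was 14.7-fold and 23.8-fold. Gm31718 held 12 and 8 peaks, up to 20.3-fold and 26.1-fold, with 7 paired. Per 100 kb of span Gm31718 was the densest of the 5 genes (11.6 and 7.72 peaks), and Gm13986 (4.33) in list 1 and Pvt1 (4.50) in list 2 the sparsest.

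**Figure D3:**
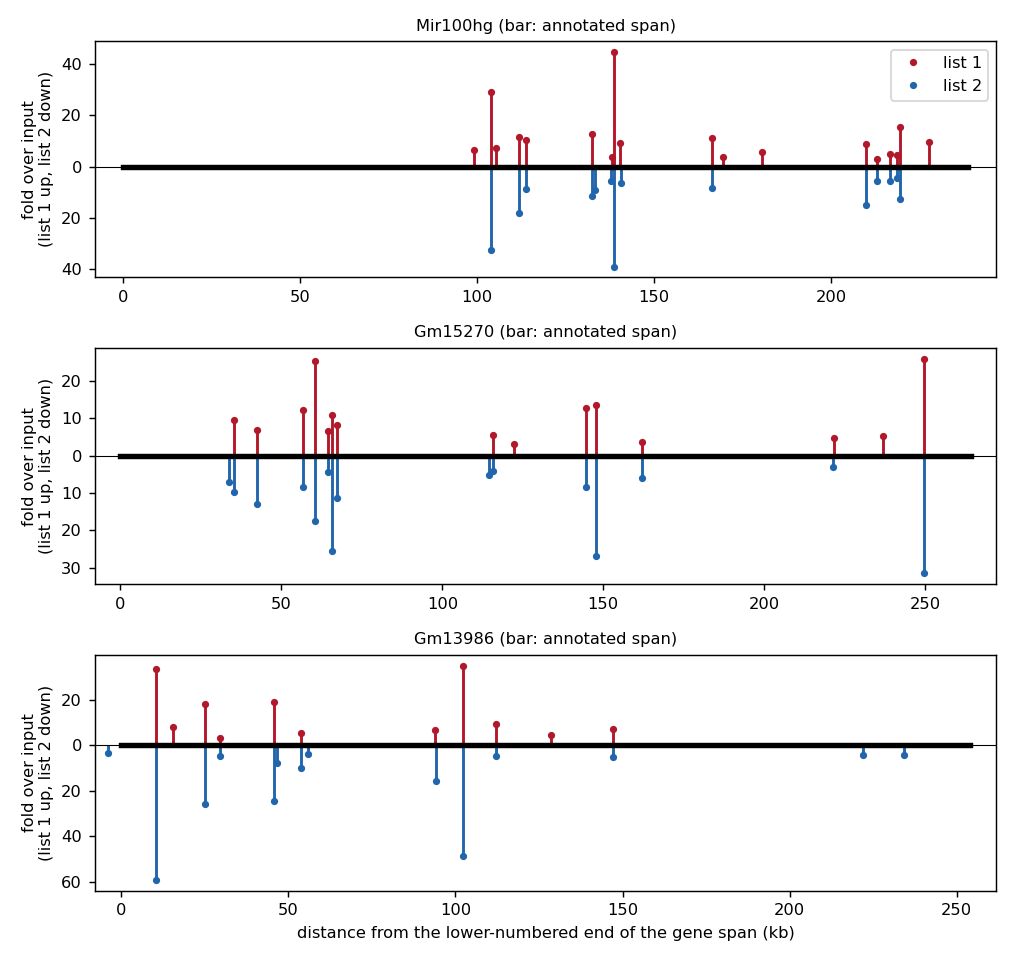
Peaks along Mir100hg, Gm15270 and Gm13986, by distance in kb from the lower-numbered end of the gene span (black bar), with fold over input upward for list 1 (red) and downward for list 2 (blue). The strong peaks stand at the same places in both lists, up to 44.8-fold and 39.1-fold in Mir100hg, and the peaks without a partner reach at most 9.55-fold.

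Counted by the nearest protein-coding gene, an order seen in the data, Thbs1 had the most of these peaks (18 in list 1 and 22 in list 2), then Cited2 (14 and 14) and Myc (15 and 13). Fn1, the fibronectin gene, had 7 and 6, at 98.5 to 242.9 kb. Nearness here is distance along the chromosome and says nothing of which gene a site acts on.

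A minority of the peaks lay near a transcription start. Of the 1839 and 1857 peaks whose lncRNA has a start in the RefSeq table, 228 (12.4%) in list 1 and 222 (11.95%) in list 2 had their summit within 1 kb of it, and 46.2% and 45.2% lay more than 10 kb away. The median distance was 8.47 and 8.23 kb. How much of the ground of the rule lies within 1 kb of a start was not worked out. These shares therefore do not tell whether starts are favoured or avoided. Median folds within 1 kb of a start were 6.98 and 6.91, against 6.41 and 6.93 beyond.

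Start windows that held a summit, 64 in each list and 44 in both, were searched for 4 motif cores on both strands: the TEAD core GGAATG, the AP-1 core TGACTCA, the RUNX core TGTGGT and the GC box core GGGCGG. The TEAD core was in 28 of 64 windows (43.8%, Wilson 95% interval 32.3 to 55.9) in list 1 and 25 of 64 (39.1%, 28.1 to 51.3) in list 2. It was in 17.6% of the 6022 lncRNA start windows more than 10 kb from a protein-coding gene, and in 14.7% of all 32851 start windows. The AP-1 core was in 31.2% (21.2 to 43.4) and 29.7% (19.9 to 41.8) of windows with a summit, against 7.09% of those lncRNA windows and 5.20% of all.

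A TEAD or an AP-1 core stood in 65.6% and 62.5% of the windows with a summit, against 23.4% of the lncRNA windows far from protein-coding genes. TEAD and AP-1 matches shared no base in any window with a summit, and did so in 21 of all windows. The RUNX core was in 39.1% (28.1 to 51.3) and 37.5% (26.7 to 49.7), against 21.4%. The GC box core was in 9.38% in both lists, against 8.42% of the same lncRNA windows and 35.7% of all start windows. Median GC content of the windows with a summit was 47.5% and 47.2%, close to the 46.7% of the lncRNA windows far from protein-coding genes.

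Start windows of protein-coding genes that held a summit, 175 in list 1 and 150 in list 2, gave a comparison. The TEAD core was in 45.1% (38.0 to 52.5) and 45.3% (37.6 to 53.3) of them, within the intervals at lncRNA starts. The AP-1 core was in 12.6% (8.45 to 18.3) and 11.3% (7.20 to 17.4), and these intervals lie below those at lncRNA starts in both lists. RUNX cores were in 21.1% and 21.3%, and GC box cores in 30.9% and 29.3%. Of all 21262 protein-coding start windows, 13.6% held the TEAD core, 4.66% the AP-1 core, 14.97% the RUNX core and 46.2% the GC box core. The GC box shares with a summit were thus below the share of all protein-coding windows. The AP-1 share of all protein-coding windows was also below the 7.09% of lncRNA windows far from protein-coding genes. The intervals cover the number of windows only, and the sets differ in position and base composition, so these shares are descriptions.

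The TEAD and AP-1 cores stood close to the summit. The nearest TEAD core was within 50 bp of the summit in 21 of 28 windows in list 1 and 21 of 25 in list 2, with median distances of 27 and 21.5 bp. The nearest AP-1 core was within 50 bp in 13 of 20 and 12 of 19 windows (medians 33.5 and 25 bp). RUNX cores were that close in 7 of 25 and 10 of 24 windows. The median fold of windows with a TEAD or AP-1 core was 7.16 in list 1 and 9.14 in list 2, against 8.98 and 9.68 in windows with neither.

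Single starts show both kinds. Gm5546, with 2 TEAD cores and an AP-1 core, was 14.9-fold enriched in list 1 (11.3 to 19.4) and 17.0-fold in list 2 (13.1 to 21.6). A530046M15Rik, with 3 AP-1 cores, lies 77.0 kb from Gli3, a transcription factor gene of hedgehog signalling, and was 19.1-fold and 18.1-fold. Its nearest AP-1 core was 31 and 26 bp from the summit. Gm35546, 35.7 kb from Tgfb2, and Gm12022, 387.1 kb from Meis1, had none of the 4 cores in the window and were 44.8-fold and 53.0-fold, and 24.2-fold and 37.3-fold. No match says only that these letters are not in that window.

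**Figure D4:**
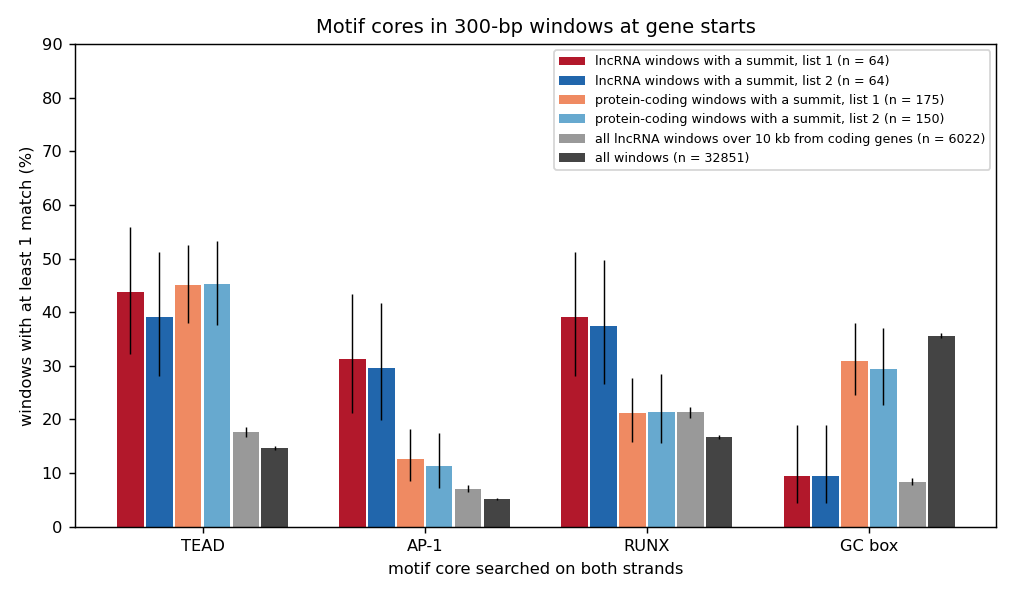
Percent of 300-bp start windows with at least 1 match to each motif core on either strand, for lncRNA windows with a summit (list 1 red, list 2 blue), protein-coding windows with a summit (orange and light blue), all lncRNA windows far from protein-coding genes (light grey) and all windows (dark grey), lines being Wilson 95% intervals. TEAD cores are in 43.8% and 39.1% of lncRNA windows with a summit, and AP-1 cores in 31.2% and 29.7%.

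Across all of them, the noncoding-gene peaks had much the same strength as the lists they came from. Their median fold was 6.49 (quartiles 4.77 and 9.91) in list 1 and 6.90 (4.95 and 11.2) in list 2, against 6.24 and 6.83 over all peaks. Folds of 10 or more belonged to 562 (24.1%, 22.4 to 25.9) and 693 (29.3%, 27.5 to 31.2), against 22.9% and 28.1% of all peaks. Median fragment numbers at the summit were 20 and 22, against 19 and 22, and median widths 492 and 458 bp, against 472 and 445 bp. A share this near that of all peaks is no result about noncoding genes.

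Most of the peaks lay inside an annotated gene span, 70.4% in list 1 and 70.2% in list 2, and the rest in the flanks. Of the peaks 35.8% and 35.5% were at a gene with a curated transcript, and the rest were at genes known from predicted transcripts. The median distance to a protein-coding gene was 51.4 and 53.0 kb, and 12.6% and 13.2% lay more than 200 kb away. Median folds in 4 bins of that distance were between 6.24 and 6.82 in list 1 and between 6.59 and 7.17 in list 2.

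The ground that the rule covers, 203.4 Mb between the first and last peak of each chromosome, held 11.4 and 11.6 peaks per Mb. The remaining ground more than 10 kb from protein-coding genes, 1077 Mb, held 5.12 and 5.25, and the ground in or near protein-coding genes 10.6 and 10.4. Assembly gaps were not taken out of these lengths, and no test was made of the difference. At the limits of the rule, the nearest summit inside the 5 kb limit lay 4998 bp from Gm30246 in list 1 (6.36-fold over input) and 4995 bp from Gm40434 in list 2 (24.7-fold). The nearest outside lay 5002 bp from Gm40434 in list 1 (15.1-fold) and 5001 bp from Gm30173 in list 2 (9.29-fold). At the limit to protein-coding genes the nearest inside lay 10015 bp and 10012 bp away (10.3-fold and 6.28-fold), and the nearest outside 9933 bp and 9972 bp (4.39-fold and 6.07-fold).

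Of 8085 lncRNA genes that reach ground where the rule allows a peak, 1536 had one in list 1, 1603 in list 2 and 1281 in both (15.8%, 15.1 to 16.7). Of 306 such microRNA genes 18, 23 and 17 did (5.56%, 3.50 to 8.72, in both). Their spans differ in length, with a median of 10.6 kb for lncRNA genes and 0.082 kb for microRNA genes. LncRNA genes with a peak in both lists had longer spans, with a median of 17.8 kb. Among the lncRNA genes 241 and 238 held at least 3 peaks.

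The lncRNAs and microRNAs studied in heart and fibroblasts were counted from fixed lists, whatever their values. These lists were fixed with earlier results of these data known. Of 25 such lncRNA genes that could hold a peak, 8 had one in list 1, 11 in list 2 and 8 in both. Over all 8085 lncRNA genes that could hold one, 15.8% had a peak in both lists. Spans differ in length, and no test was made. Besides Mir100hg and Pvt1, Lncpint, a p53-induced lncRNA, had 8 peaks in each list, up to 13.3-fold enriched in list 1 and 18.7-fold in list 2. Malat1, an abundant nuclear RNA, had 5 and 3, and the peak inside its gene was 9.24-fold (6.58 to 12.6) and 19.4-fold (14.97 to 24.6). Carmn, a lncRNA of smooth muscle and heart precursors, had a paired site 8.32-fold and 12.2-fold over input.

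Peaks also stood at Mir99ahg, a lncRNA named after Mir99a (up to 8.45-fold in list 1 and 7.68-fold in list 2), at Trp53cor1, also known as lincRNA-p21 (8.45-fold and 6.63-fold), and at Rian of the imprinted chromosome 12 cluster (8.13-fold and 3.96-fold). Neat1, which builds paraspeckles, Sox2ot and Xist, the RNA of X inactivation, had peaks in list 2 and none in list 1, between 3.30-fold and 5.58-fold on at most 15 fragments. The other 14 had none, among them Meg3, Mirg, H19, Fendrr, Hand2os1, Miat, Tug1 and Mir17hg. Of 29 microRNA genes 8, 9 and 8 had a peak, all described above. Over all 306 microRNA genes that could hold one, 5.56% had a peak in both lists. Mir29a and Mir29b-1 were counted on the same peaks. So were Mir143 and Mir145a, whose peaks in the 2 lists did not overlap. Mir1a-1 and Mir133a-2 of heart muscle, Mir34a, Mir221, Mir222, Mir17 and the let-7 genes Mirlet7a-2, Mirlet7c-1 and Mirlet7i were among the 20 genes without a peak in either list.

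Most of the peaks were found in both lists. Of list 1 peaks at noncoding genes 1695 (72.8%, 71.0 to 74.6) overlapped a list 2 peak, against 70.9% of all list 1 peaks, and of those in list 2 1706 (72.2%, 70.4 to 74.0) overlapped a list 1 peak, against 71.4% of all. In 4 groups of equal size by −log10 q, from the weakest to the strongest, the shared percentage was 40.9, 64.8, 86.4 and 99.1 in list 1 and 38.7, 64.8, 85.9 and 99.3 in list 2. The median number of fragments in these groups was 12, 17, 24 and 46.5 in list 1 and 13, 18, 27 and 55 in list 2.

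Folds at the 1681 paired sites moved together, with Pearson's r of 0.79 on the log2 scale and Spearman's rho of 0.73 across sites, which share 2 libraries and are not replicates. The summits of a pair lay a median of 27 bp apart, and 85.5% within 100 bp. On the log2 scale the list 1 to list 2 ratio had a median of -0.14, against -0.15 over all 15015 pairs. A fold at least 2 times higher in list 1 was seen at 31 pairs (1.84%), against 1.90% of all pairs, and one at least 2 times higher in list 2 at 92 (5.47%), against 5.81%. The intervals did not overlap, with list 1 higher, at 27 pairs (1.61%, against 1.67% of all) and, with list 2 higher, at 119 (7.08%, against 7.13%). These shares lie near those of all pairs.

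The fold is made from the fragment number and the local background, so pairs picked by fold ratio tend to differ in both by construction. At the 31 pairs higher in list 1 the median background was 1.88 in list 1 and 3.25 in list 2. For the 92 pairs higher in list 2 it was 3.47 and 2.02. Fragment numbers differed in the same sense, with medians of 29 and 16, and of 26 and 46. Among the 415 pairs whose background was near the floor of its list in both, the median ratio on the log2 scale was -0.068, and 5 and 7 pairs were at least 2 times higher in list 1 and in list 2. Over all paired sites the same restriction left 3992 pairs with a median of -0.12, of which 34 and 95 were at least 2 times higher in list 1 and in list 2. The part of the input background in the differences was not tested.

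The largest ratio belonged to Gm34259, at chr17:4626165-4626598 in list 1. It was 149.6-fold enriched in list 1 (136.3 to 164.0), the highest fold of that list, on 459 fragments over a background of 2.07, and 6.86-fold in list 2 (5.21 to 8.87), on 56 fragments over 7.31. The peak was 434 bp wide in list 1 and 381 bp in list 2, below the median width of 492 and 458 bp in spite of its height. Among 989 pairs with at least 20 fragments in both lists, the next largest were 4931440J10Rik (15.6-fold in list 1 and 4.14-fold in list 2), Gm33782 (32.3-fold and 9.89-fold), Gm35218 (12.9-fold and 4.39-fold) and Gm8633 (11.0-fold and 4.55-fold). The fragment numbers were 102 and 45 at Gm33782 and 29 and 22 at Gm8633, with the others between. At each of these next largest sites the background was lower in list 1, at 1.72 to 2.19, against 3.65 to 5.28 in list 2.

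In the other direction stood Gm42294 (4.48-fold enriched in list 1 and 22.4-fold in list 2), Gm39928 (6.14-fold and 29.2-fold), Gm30013 (3.56-fold and 15.7-fold), Gm41334 (4.63-fold and 19.1-fold) and Gm46201 (6.47-fold and 26.6-fold). These sites were picked by their ratio. At each the background was higher in list 1, at 3.53 to 7.26, against 1.87 to 2.99 in list 2. The fragment numbers were from 20 to 39 in list 1 and from 44 to 105 in list 2.

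**Figure D5:**
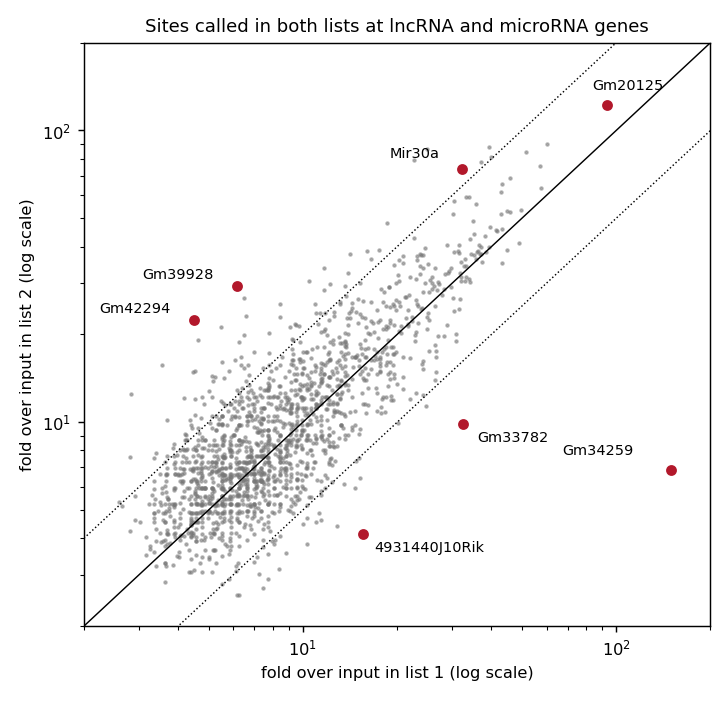
Fold over input in list 2 (vertical, log scale) against list 1 (horizontal, log scale) at the 1681 paired sites, 1 point per site, with lines of equality (solid) and of a 2 times difference (dotted) and with named sites in red. Most points lie between the dotted lines, and Gm34259, at 149.6-fold in list 1 and 6.86-fold in list 2, lies farthest below them.

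The 5 strongest peaks of each list without any overlap in the other, by −log10 q, had folds from 4.94 to 17.2 in list 1 and from 11.1 to 12.2 in list 2. In list 1 Gm31820, 77.0 kb from the Wnt ligand gene Wnt4, was 17.2-fold over input (12.96 to 22.5; 52 fragments). Gm1604a was 13.1-fold, Junos 9.74-fold and 4930517G24Rik 8.36-fold. AY036118 was 4.94-fold on 109 fragments, over a background of 21.3, about 10 times the median of 2.07. In list 2 Gm30568 was 12.2-fold, Gm52145 11.9-fold, the Gm32840 and Gm32733 site 11.6-fold, Gm42209 11.2-fold and the E230016K23Rik and Gm38933 site 11.1-fold, on 33 to 44 fragments.

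Junos, a lncRNA beside the AP-1 subunit gene Jun, held shared peaks as well as peaks of list 1 alone. It held 7 peaks in list 1 and 4 in list 2. The strongest, at chr4:95158316-95159156, was 31.7-fold enriched in list 1 (26.0 to 38.2) and 32.5-fold in list 2 (26.4 to 39.4), and another was 11.8-fold and 11.1-fold. The list 1 peak named above, at chr4:95097995-95098958, had 34 fragments over a background of 2.59. Weaker list 1 peaks at chr4:95084116-95084471 (6.82-fold, 20 fragments) and chr4:95094549-95095181 (3.59-fold, 11 fragments) had no overlap in list 2 either.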

How the data were processed

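ChIP-seq of newborn mouse cardiac fibroblasts gave 4 libraries, 1 per group. Reads were trimmed with Trimmomatic 0.33, aligned with Bowtie 1.1.2 and given to MACS2 for peak calling, per the submitters' processing notes; the MACS2 settings are not stated there. The deposited files used were 2 peak lists called against input. The authors' score of a peak is an integer made from its q value and was not used for a result. The authors' fold is a ratio of ChIP pileup to local input background, and the authors' −log10 p and −log10 q rate that pileup against that background. The notes name the build mm39, but the deposited coordinates were read as GRCm38, counted from 1, and set against the RefSeq gene table of GRCm38.p6 (12731 lncRNA, 1228 microRNA and 21896 protein-coding genes). No coordinate was converted, and no column of values was left unread for lack of a sample.

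The fragment number and background at each summit were solved from fold and p, in all but 2 peaks per list, none of them at a noncoding gene. This step was checked on simulated data. Library totals are not in the lists. The lowest background was 1.72 in list 1 and 1.87 in list 2, and the lowest fragment number 8. Intervals of folds are exact Poisson and those of shares Wilson, both at 95%, and cover counting only. Peaks were shared at 1 bp of overlap, and paired where each was the other's best overlap. A block of chromosome 9 with raised input held 3 and 5 of the peaks described.

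The genes, lists and comparisons were chosen with earlier results of these data known. Named were the microRNA genes with a peak, the 12 lncRNA sites highest in the smaller −log10 q, the 5 strongest peaks without overlap in each list, the 5 largest ratios each way, the 5 lncRNA genes with most peaks, and the genes of the fixed lists; 1 of the 12 lncRNA sites is not reported here. Of 41 fixed lncRNA names 36 matched the table. With 1 library per list no replicate could be left out. Apart from microRNA hairpins and mature forms, peak sequences away from gene starts were not used here. Python 3.11.15, pandas 2.3.3, numpy 2.4.6, scipy 1.17.1 and matplotlib 3.10.9 were used.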

Additional observations from a re-analysis of the deposited data

How the results depend on the processing

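The number of peaks, the shared percentage, the median fold, the share with a fold of at least 10, the median pair ratio and the number of genes with a peak in both lists were recomputed with other distances, thresholds and overlap rules. Motif shares, start distances, densities, fixed-list counts and named sites were not. Of 87 values 64 stayed within their interval or within 1.5 times, 23 moved and 0 reversed. More than 50 kb from protein-coding genes lay 1187 peaks in list 1 and 1230 in list 2, and 638 genes then had a peak in both lists. With the summit inside the gene span only, 848 genes had one in both. Among the 5000 strongest peaks of each list, 593 and 594 lay at noncoding genes, 78.2% and 78.5% of them were shared, their median folds were 14.0 and 16.5, and 90.2% and 97.8% had a fold of at least 10. The median log2 ratio of the pairs was then -0.20, and 443 genes had a peak in both lists. With a −log10 q of at least 5, 78.1% were shared in list 1 and 73.0% in list 2, the latter within its main interval. Median folds were then 7.52 and 7.71, and 31.0% and 35.5% had a fold of at least 10. Counting as shared those with summits within 100 bp gave 62.1% and 61.2%. In 2 alternatives added after the data were seen, the median log2 ratio was -0.068 where the background was near the floor in both lists, and 379 genes with curated lncRNA transcripts or microRNAs had a peak in both. A stricter threshold keeps stronger peaks by its construction, and it raises folds and shared percentages; the cause of the other shifts was not tested. No paired analysis was possible because the labels give 1 replicate per group and tie no list to a sample. Sites with few fragments had wide counting intervals, and a peak missing from a list may have stayed under its threshold there.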
